A study of Mus musculus with 4 samples.

Results

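Fezf2, Bcl11a, Bcl11b, Bhlhe22 and Tle4 are genes of nuclear factors best known from projection neurons, the long-range output neurons of the cortex and the striatum. They are 5 of the 43346 genes in the count tables, were chosen by symbol, and were followed in every cell of 4 droplet single-cell RNA-seq libraries of the E12.5 (embryonic day) mouse forebrain. One library was made from the cortex (CTX) and one from each ganglionic eminence of the ventral forebrain, the lateral (LGE), the medial (MGE) and the caudal (CGE), all from wild-type (WT) C57BL/6 embryos, with no treatment given in the labels. Tissue was pooled over embryos within each library, so a difference between regions has no replicate check. The labels describe a sort for live cells and the methods of the study describe WT cells as unsorted, which was not settled, and the shares of cells in a class may carry that step.

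Fezf2 is a zinc finger repressor that specifies corticofugal neurons of the deep layers. Bcl11a (Ctip1) and Bcl11b (Ctip2) are paralogous zinc finger factors that recruit chromatin-remodelling complexes, and Bcl11b is required both for the corticospinal axon and for the differentiation of striatal projection neurons. Bhlhe22 (Bhlhb5) is a basic helix-loop-helix repressor of cortical postmitotic neurons, and Tle4 is a Groucho corepressor that binds no DNA itself and marks corticothalamic neurons later in development. In the cortex these neurons arise from Nes-expressing radial glia through Eomes-expressing intermediate progenitors, and in the eminences they arise beside the GABAergic interneurons.

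On GRCm38 (mm10), the annotation placed Fezf2 (ENSMUSG00000021743.5) on the minus strand at chr14:12342094-12348189 and Bcl11a (ENSMUSG00000000861.11) on the plus strand at chr11:24078056-24174123. Bcl11b (ENSMUSG00000048251.11) lay on the minus strand at chr12:107910403-108003602, Bhlhe22 (ENSMUSG00000025128.7) on the plus strand at chr3:18054174-18057517, and Tle4 (ENSMUSG00000024642.12) on the minus strand at chr19:14448150-14598051. Bcl11a was the member that overlapped other annotated genes, 2 antisense RNAs, and the higher of them did not exceed 0.251 counts-per-million (CPM) in neurons of any library. The promoter windows of Fezf2 and Tle4 are shown because these were the members for which the difference between neurons and progenitors in CTX was least like that in the eminences. Each is the 300 bases around a RefSeq start (GRCm38.p6, minus strand), chr14:12345816-12346115 for Fezf2 and chr19:14598134-14598433 for Tle4, and capitals mark CANNTG, the E-box bound by basic helix-loop-helix factors.
Fezf2: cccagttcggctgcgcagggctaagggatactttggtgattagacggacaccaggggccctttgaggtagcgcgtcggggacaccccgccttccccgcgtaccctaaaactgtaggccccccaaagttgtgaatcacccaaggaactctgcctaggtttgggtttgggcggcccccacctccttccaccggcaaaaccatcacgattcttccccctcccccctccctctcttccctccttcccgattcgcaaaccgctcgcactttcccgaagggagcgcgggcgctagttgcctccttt
Tle4: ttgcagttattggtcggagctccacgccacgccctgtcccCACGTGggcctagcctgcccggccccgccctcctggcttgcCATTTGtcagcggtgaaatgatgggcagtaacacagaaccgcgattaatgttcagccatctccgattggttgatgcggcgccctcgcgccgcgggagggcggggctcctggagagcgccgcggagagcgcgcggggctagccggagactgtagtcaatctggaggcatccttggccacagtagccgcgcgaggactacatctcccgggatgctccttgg
The Tle4 window held 2 E-boxes and the Fezf2 window held 0. Bcl11a had 1, Bcl11b had 0, and a second Tle4 start had 0, while 72.3% of all 32851 windows of this length held at least 1. TGACCA, a motif bound by BCL11A, was searched on both strands and occurred in 0 of these windows and in 13.6% of all. Such letters are a description of the window and do not show binding, and 4 of the 5 members had an entry, with Bhlhe22 not matched.

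Filtering left 3532 cells of CTX and 4661, 4727 and 3193 cells of LGE, MGE and CGE, with medians of 6951 to 8242 unique molecular identifiers (UMIs) per cell, and pairs of libraries shared 4 to 15 cell barcodes. High-Dcx cells, an immature neuron class with Dcx above 1.5 as ln(1 + UMIs per 10000), numbered 800, 2118, 2193 and 2288. High-Nes cells, the progenitor class under the same limit for Nes, numbered 896, 651, 542 and 180. The summed marker lists followed the labels: the glutamatergic list summed to 2702 CPM in CTX high-Dcx cells and 0.275 to 94.3 CPM in the eminences, and the GABAergic list summed to 78.8 CPM and 2234 to 2715 CPM. Levels are CPM of the UMIs summed over a class. Intervals are 95% and hold counting error alone, so they do not cover how embryos or dissections vary.

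Fezf2 and Bhlhe22 separated CTX neurons from those of every eminence. In high-Dcx cells, Fezf2 stood at 302.5 CPM in CTX (interval 290 to 316, 2046 UMIs), 0.135 in LGE (2 UMIs), 0.0686 in MGE (1 UMI) and 3.77 in CGE (2.88 to 4.85, 60 UMIs). Bhlhe22 stood at 287 CPM in CTX (274 to 299.9, 1940 UMIs), 1.62 in LGE (24 UMIs), 0.0686 in MGE (1 UMI) and 5.15 in CGE (4.10 to 6.40, 82 UMIs). CTX was therefore far above all 3 eminences for each of them, and CGE came second. The CTX level of Fezf2 was 80.2 times that of CGE (62.1 to 106), and the ratios to LGE and MGE, 2238 (619 to 18488) and 4408 (790 to 174181), rest on 2 and 1 eminence UMIs. For Bhlhe22 the ratios were 177 (118 to 277) to LGE, 4179 (749 to 165161) to MGE and 55.7 (44.6 to 70.3) to CGE. These sizes moved with the choice of cells and not in direction: with each cell thinned to 3000 UMIs the CGE ratios were 164 for Fezf2 and 111 for Bhlhe22, and with predicted doublets kept the Fezf2 ratio to LGE was 333. With CTX cells limited to Neurod2 or Neurod6 and eminence cells to Gad2 or Dlx5, the Bhlhe22 ratios to LGE and CGE were 1451 and 4413. That setting compares unlike lineages and leaves out eminence Neurod2 or Neurod6 cells, so it cannot check the region ratio. In high-Dcx cells with Neurod2 or Neurod6 and no Gad2 or Dlx5, Bhlhe22 stood at 299 CPM in CTX, 139 in LGE and 110 in CGE. Of the order CTX, CGE, LGE, MGE, LGE and MGE did not differ beyond counting error for Fezf2 (ratio 1.97, 0.103 to 116), and all neighbours differed beyond it for Bhlhe22. The UMIs of CGE, LGE and MGE lay in 35, 13 and 1 cells for Bhlhe22 and 26, 2 and 1 for Fezf2. The intervals treat UMIs as independent, so no order among the eminences is read for the neurons.

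Bcl11a and Bcl11b were abundant in the neurons of all 4 libraries. The Bcl11a level was 946 CPM in CTX (923 to 969), 690 in LGE (676 to 703), 587 in MGE (575 to 600) and 569 in CGE (557 to 581). That order put CTX first at 1.37 to 1.66 times the eminences, and MGE and CGE differed by 1.03-fold (1.00 to 1.06). Bcl11b was ordered otherwise, at 1157 CPM in LGE (1140 to 1174), 1131 in MGE (1114 to 1149), 985 in CTX (962 to 1009) and 797 in CGE (783 to 811). LGE and MGE were 1.02-fold apart (1.00 to 1.04), CTX was at 0.852 of LGE (0.828 to 0.876) and 0.871 of MGE (0.846 to 0.896), and CTX was 1.24 times CGE (1.20 to 1.27). These differences exceed counting error but are small, and without replicates the part due to region and the part due to library cannot be told apart.

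Tle4 was highest in LGE. Its high-Dcx level was 129 CPM in LGE (123 to 135), 75.4 in CGE (71.2 to 79.8), 52.7 in MGE (49.0 to 56.6) and 50.9 in CTX (45.6 to 56.5). CTX was at 0.395 of LGE (0.351 to 0.443) and 0.675 of CGE (0.597 to 0.761), and it was not distinguished from MGE (0.965, 0.847 to 1.10).

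With a 2-fold limit (pseudocount 1 CPM, genes at 50 or more CPM in either library), Fezf2 and Bhlhe22 were the 2 members higher in CTX against each eminence. Over all genes tested, 6.13% were higher in CTX than in LGE, 6.57% than in MGE and 5.25% than in CGE. Tle4 was lower in CTX against LGE alone, where 6.18% of all genes were lower, and 0 members were lower against MGE or CGE (background 4.77% and 5.37%). Bcl11a and Bcl11b passed the limit in none of the 3 comparisons. Among genes listed as members' paralogs or partners, Prdm8, whose protein forms a repressor complex with Bhlhe22, stood at 88.4 CPM in CTX and 5.21, 0.0686 and 8.23 in LGE, MGE and CGE. Fezf1, the paralog of Fezf2, was listed at 0 in CTX and LGE neurons, 0.206 CPM in MGE and 8.23 CPM in CGE.

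**Figure D1:**
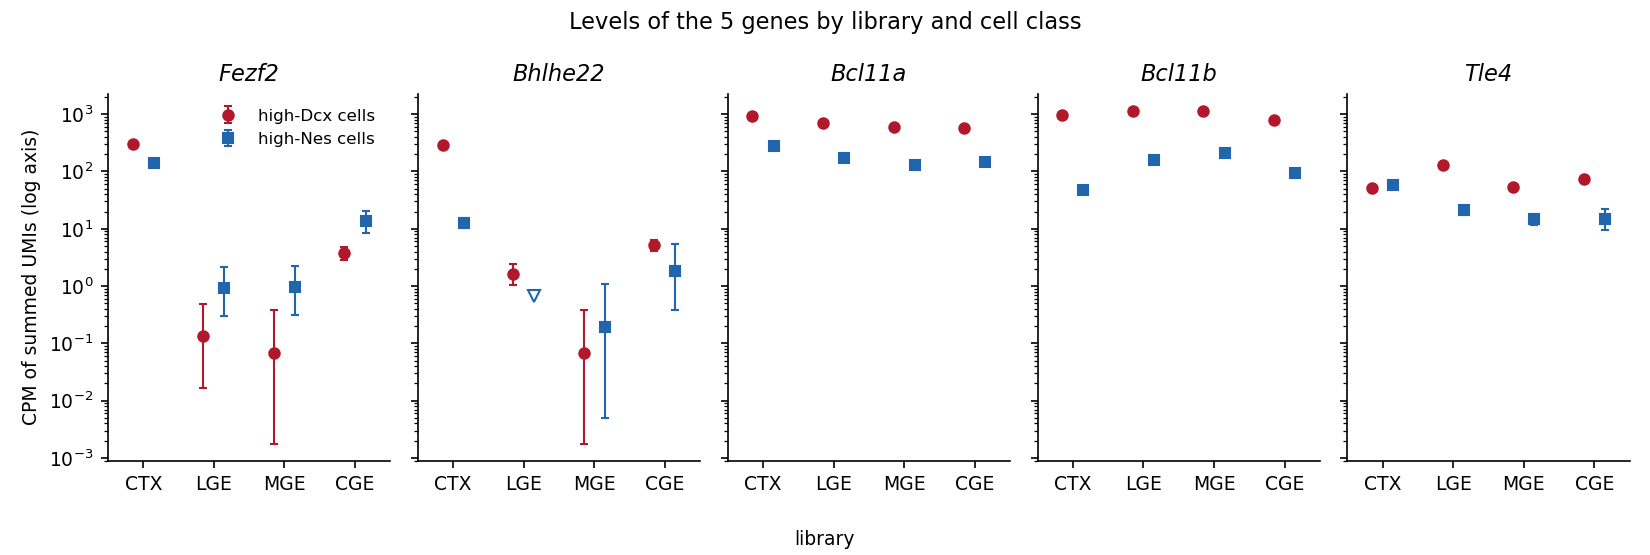
Level of each gene (CPM of summed UMIs, log axis) in the 4 libraries, with circles for high-Dcx cells, squares for high-Nes cells and bars for exact Poisson 95% intervals. An open triangle marks the upper limit where 0 UMIs were counted. Fezf2 and Bhlhe22 stand at 302.5 and 287 CPM in CTX neurons and at or below 5.15 CPM in those of the eminences, and Bcl11a and Bcl11b stay high in all 4 libraries.

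The high-Nes progenitors already held part of this pattern. Fezf2 was at 140 CPM in CTX high-Nes cells (132 to 149), 13.7 in CGE (8.59 to 20.8, 22 UMIs), 0.969 in MGE (5 UMIs) and 0.917 in LGE (5 UMIs). Bhlhe22 was at 12.6 CPM in CTX (10.2 to 15.4, 97 UMIs), 1.87 in CGE (3 UMIs) and 0.194 in MGE (1 UMI), and had 0 UMIs in LGE, where 3 counts would be 0.550 CPM. CTX was the highest library for both genes in progenitors too. Bcl11a was at 278 CPM in CTX, 171 in LGE, 148 in CGE and 131 in MGE, and the last pair did not differ beyond counting error (0.884, 0.762 to 1.03). Bcl11b ran the other way, with 47.7 CPM in CTX (42.9 to 52.8), 94.1 in CGE (79.7 to 110), 157 in LGE (146 to 168) and 211 in MGE (198 to 224), so that CTX progenitors were at 0.226 to 0.506 of the eminences. Tle4 was at 57.4 CPM in CTX (52.2 to 63.0) and 21.1, 15.0 and 14.7 in LGE, CGE and MGE, which makes CTX progenitors 2.72 to 3.90 times the eminences while CTX neurons were at or below them. LGE and CGE (1.41, 0.903 to 2.29) and CGE and MGE did not differ in Tle4 beyond counting error.

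Within a library, the 2 classes can be set against each other, and the 4 libraries then serve as the replicates of that difference. The high-Dcx level of Bcl11a was 3.40 times the high-Nes level in CTX, and 4.03, 4.48 and 3.84 times it in LGE, MGE and CGE. For Bcl11b the ratio was 20.7 in CTX and 7.38, 5.37 and 8.47 in LGE, MGE and CGE. Both were thus higher in neurons in 4 of 4 libraries. Bhlhe22 was 22.8 times higher in CTX (18.6 to 28.2) and 2.76 times in CGE (0.911 to 13.6), had 24 UMIs against 0 in LGE and 1 against 1 in MGE. In edgeR's quasi-likelihood test with library as a block and Benjamini-Hochberg adjustment over 12332 genes, 13.8% of genes were higher and 15% lower in high-Dcx cells (adjusted p under 0.05 and at least 2-fold). Bcl11a (log2 difference 2.25, SE 0.10, adjusted p 0.000171), Bcl11b (3.59, SE 0.35, adjusted p 0.000744), Bhlhe22 (4.86, SE 0.32, adjusted p 0.000537) and Tle4 (1.73, SE 0.51, adjusted p 0.0298) were among the higher genes, and 0 members were lower. The Bhlhe22 value rests on the CTX library, since the gene fell below the filter on low counts without it. Its small SE depends on the method, as DESeq2's Wald test gave 3.66 (SE 1.49, adjusted p 0.0269). The p-values treat the 4 regional libraries as replicates, and their spread holds region, embryo and handling together.

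Tle4 and Fezf2 were the members for which the CTX library was least like the eminence libraries. The Tle4 level in neurons was 0.886 of that in progenitors in CTX (0.768 to 1.02), and the same ratio was 6.11 (5.06 to 7.44), 3.58 (2.83 to 4.59) and 5.04 (3.37 to 7.90) in the LGE, MGE and CGE libraries. It was thus higher in neurons in 3 of 4 libraries, and its call in edgeR's test was lost without LGE (1.34, adjusted p 0.102), without MGE (1.65, adjusted p 0.105) or without CGE (1.57, adjusted p 0.104), and held without CTX (2.43, adjusted p 0.000364). Fezf2 had its one ratio above 1 in CTX, with a neuron level 2.16 times the progenitor level in CTX (2.01 to 2.33) and 0.147 (0.0140 to 0.901), 0.0709 (0.00150 to 0.633) and 0.275 (0.166 to 0.471) of it in LGE, MGE and CGE. The LGE and MGE ratios rest on 2 and 1 UMIs in high-Dcx and 5 and 5 in high-Nes cells. Of the MGE high-Nes UMIs, 4 lay in 1 cell, so no fall is read from these ratios. The CGE ratio (60 and 22 UMIs) mixes lineages. Its high-Dcx cells with Gad2 or Dlx5 alone had 0 CPM, and those with Neurod2 or Neurod6 alone 71.5, above the 13.7 CPM of its high-Nes cells. Over the 4 libraries Fezf2 was not called (log2 difference -0.25, SE 0.78, adjusted p 0.806). An interaction term in edgeR, added after the data were seen, set the CTX library against the 3 eminence libraries in this difference. On the log2 scale it was 3.34 for Fezf2, -2.50 for Tle4, 1.51 for Bcl11b, -0.45 for Bcl11a and 1.08 for Bhlhe22, given as sizes without p-values. With 1 CTX library and 2 residual degrees of freedom, the term assumes that CTX varies like the eminences, and region and library cannot be told apart, so the values describe these 4 libraries.

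Markers of non-neural cells moved with the classes, as 4 of 4 tested microglial, 2 of 2 endothelial and 2 of 2 pericyte markers were lower in high-Dcx cells. The microglial list summed to 1.28 to 185 CPM in high-Nes and 0.744 to 12.6 CPM in high-Dcx cells. With the non-neural cells removed, the same 4 members were called. As a check of the classes, 5 of 7 tested radial glia markers, Hes1, Hes5, Slc1a3 and Fabp7 among them, were lower in high-Dcx cells. All 5 tested glutamatergic markers and 4 of 6 GABAergic markers were higher, as were 4 of 5 MGE interneuron markers, and 1 of 4 intermediate progenitor markers was lower.

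Shares of cells with a UMI were compared after each cell was thinned to 3000 UMIs, with the share at own depth in brackets. In CTX high-Dcx cells, Fezf2 was detected in 48.2% (44.6 to 51.7) of 785 cells [73.0%], Bhlhe22 in 43.6% (40.1 to 47.1) [60.1%], Bcl11a in 89.3% [96.5%], Bcl11b in 85.2% [94.4%] and Tle4 in 10.8% (8.74 to 13.2) [31.8%]. In LGE the thinned shares were 0.0964%, 0.338%, 80.2%, 84.8% and 26.2% (24.3 to 28.1) in the same order of genes. Bcl11b had its highest share in MGE, 93.8%, and in CGE it was 79.1%. Droplets also carry free RNA, so the shares in the 122 non-neural cells of the 4 libraries (median 10034 UMIs) serve as a pooled background. They were 1.64% for Fezf2, 3.28% for Bhlhe22, 14.8% for Bcl11a, 7.38% for Bcl11b and 13.9% (8.33 to 21.4) for Tle4. Free RNA and expression in the non-neural cells themselves were not told apart in these shares. Over all high-Dcx cells, the Fezf2 shares in LGE, MGE and CGE (0.0964%, 0.0467% and 0.355%) lay below the pooled background and are not read as expression. Those of Bhlhe22 (0.338%, 0 of 2140 cells, which allows up to 0.140%, and 0.621%) are treated alike. That background came mainly from CTX. Fezf2 was in 2 of 55 CTX non-neural cells and in 0 of 16, 34 and 17 of LGE, MGE and CGE, which allows up to 18.75%, 8.82% and 17.6%. Bhlhe22 was in 3 of the CTX cells and 1 of the MGE cells. The eminences thus had too few such cells for a background of their own. Among the few eminence high-Dcx cells that held Neurod2 or Neurod6 without Gad2 or Dlx5, Bhlhe22 was detected in 17.5% of 80 in CGE (9.91 to 27.6). In LGE it was in 23.8% of 21 (8.22 to 47.2), and both intervals start above that of the pooled background (0.900 to 8.18). Fezf2 was detected in 8.75% of those cells in CGE (3.59 to 17.2), which overlaps its pooled background (0.199 to 5.80). Tle4 stood above the pooled background in LGE only. At 10.8% in CTX, 9.95% in MGE and 13.3% in CGE it was within the pooled interval, so that no order among those 3 is read from the shares. By library, the non-neural share of Tle4 was 5.45% in CTX and 18.75%, 20.6% and 23.5% in LGE, MGE and CGE, over 16 to 55 cells. The LGE neurons lay within the interval of the LGE non-neural cells (4.05 to 45.6). High-Nes cells of LGE, MGE and CGE had Tle4 in 6.36%, 3.35% and 2.29%, lower than the non-neural cells of their library, with overlapping intervals in LGE. Tle4 shares within the pooled interval are therefore not read as absence of expression. In CTX high-Nes cells the shares were 33.1% for Fezf2, 54.1% for Bcl11a, 14.6% for Tle4, 11.4% for Bcl11b and 2.77% for Bhlhe22, of which the last 3 lay within the intervals of the background share (3.43 to 13.5 for Bcl11b, 0.900 to 8.18 for Bhlhe22).

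From the ventricular zone (VZ) through the subventricular zone (SVZ) to the mantle zone (MZ), set by the gene gates of the study (high Nes for VZ, high Dcx with cycling genes for SVZ, high Dcx with progenitor and cycling genes low for MZ), the members differed in when their level was higher. Bcl11b stood at 47.3, 529 and 1188 CPM in VZ, SVZ and MZ cells of CTX, 150, 505 and 1653 in LGE, 200.3, 896 and 1223 in MGE and 87.3, 441 and 883 in CGE. It was higher at each step in all 4 libraries, and its highest level was in MZ cells of LGE. In MGE most of the difference lay between VZ and SVZ, 4.47-fold (4.14 to 4.83) against 1.37-fold (1.29 to 1.44) between SVZ and MZ, and in LGE the steps were 3.37-fold and 3.27-fold. Bcl11a was 278, 961 and 980 CPM in CTX, where SVZ and MZ did not differ beyond counting error (1.02, 0.831 to 1.26, with 15 SVZ cells), and 163, 379 and 911 in LGE. The Tle4 levels were 57.5, 78.4 and 45.1 CPM in CTX, with no step beyond counting error, and 21.8, 68.1 and 161 in LGE. In CGE Tle4 stayed at 15.2 and 14.8 CPM in VZ and SVZ cells and was 97.0 in MZ cells, 6.56 times the SVZ level (3.64 to 13.2).

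In the cortical lineage the Eomes cells outside both gates, which hold intermediate progenitors, fill the place between VZ and MZ. Fezf2 was at 140 CPM in VZ cells, 243 (231 to 256) in the 721 Eomes cells and 346 (318 to 375) in MZ cells, so the gene was present throughout. Bhlhe22 was at 12.6, 52.4 (46.9 to 58.5) and 353 (325 to 383) CPM, with its highest level in MZ cells. Bcl11b was at 47.3, 214 and 1188 CPM and Bcl11a at 278, 472 and 980 CPM. Tle4 was at 32.0 CPM in the Eomes cells (27.7 to 36.8), below the VZ cells, and its interval overlapped that of the MZ cells (35.4 to 56.6).

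**Figure D2:**
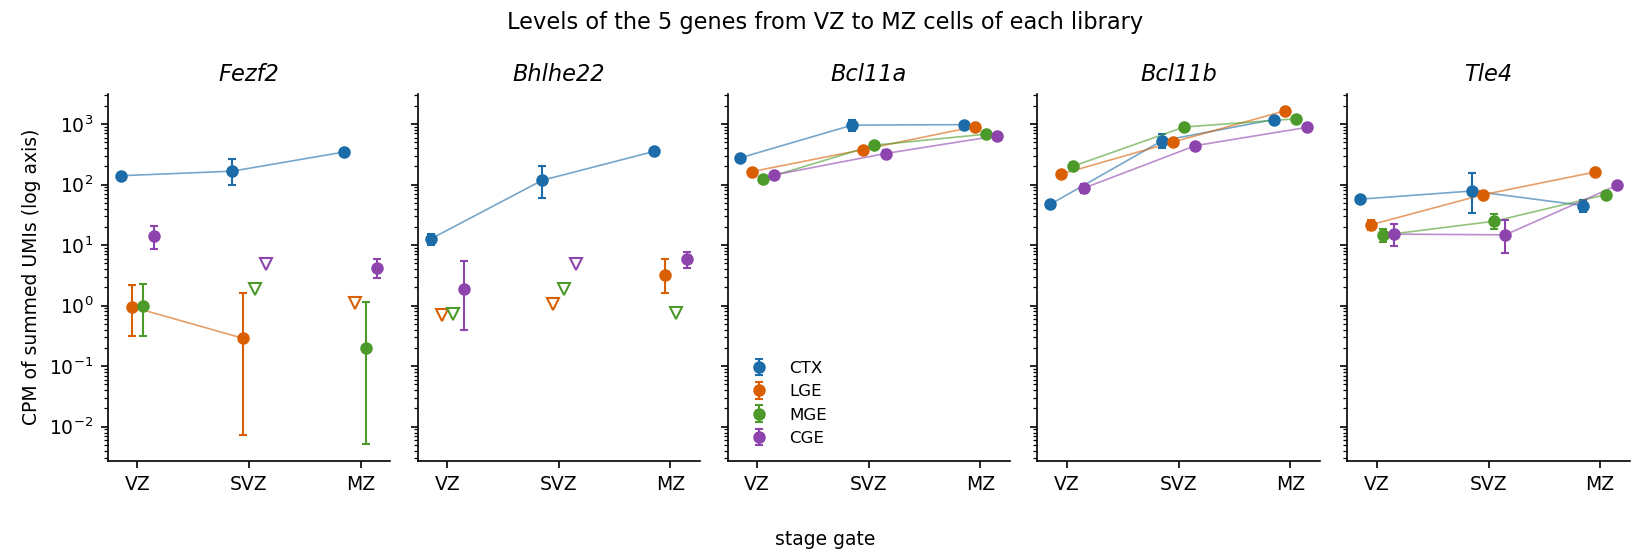
Level of each gene (CPM, log axis) in cells gated as VZ, SVZ and MZ, coloured by library, with exact Poisson 95% intervals and open triangles at the upper limit of 0 UMIs. The CTX line of Bhlhe22 climbs from 12.6 to 353 CPM and that of Bcl11b from 47.3 to 1188 CPM, whereas the CTX line of Tle4 stays between 45.1 and 78.4 CPM.

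Splitting the high-Dcx cells by lineage markers showed where the few eminence UMIs of the cortical genes lay. In CTX, 736 cells held Neurod2 or Neurod6, transcription factors of glutamatergic neurons, without Gad2 or Dlx5, and 50 cells held Gad2 or Dlx5, genes of GABAergic neurons, without Neurod2 or Neurod6. The former had 317 CPM of Fezf2 and 299 of Bhlhe22, and the latter 14.9 (4 UMIs) and 3.73 (1 UMI). Bcl11a was 981 against 254 CPM (ratio 3.86, 3.04 to 4.98) and Bcl11b 1002 against 675 CPM (1.48, 1.28 to 1.73), and Tle4 had 0 UMIs in the GABAergic cells against 53.6 CPM. All 5 members were thus higher in the glutamatergic cells of the CTX library. In CGE, the 80 Neurod cells held 46 of the 60 Fezf2 UMIs (71.5 CPM) and 71 of the 82 Bhlhe22 UMIs (110 CPM), and the 2127 Gad2 or Dlx5 cells held 0 and 1. The 21 such Neurod cells of LGE held 17 of the 24 Bhlhe22 UMIs (139 CPM) but 1 Fezf2 UMI, and MGE had 0 such cells. Bcl11b ran against this split outside CTX, with 449 CPM in Neurod cells and 820 in Gad2 or Dlx5 cells of CGE (0.548, 0.486 to 0.616), and 775 and 1165 in LGE (0.665, 0.538 to 0.814). Tle4 did so too, at 51.3 against 76.5 CPM in CGE (0.671, 0.460 to 0.948) and 65.3 against 130 in LGE (0.502, 0.216 to 0.991, with 8 UMIs in the Neurod cells). Bcl11a was not distinguished between the sets in CGE (571 against 567 CPM, ratio 1.01, 0.904 to 1.12) and was higher in the Neurod cells of LGE (914 against 689 CPM, 1.33, 1.09 to 1.60).

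**Figure D3:**
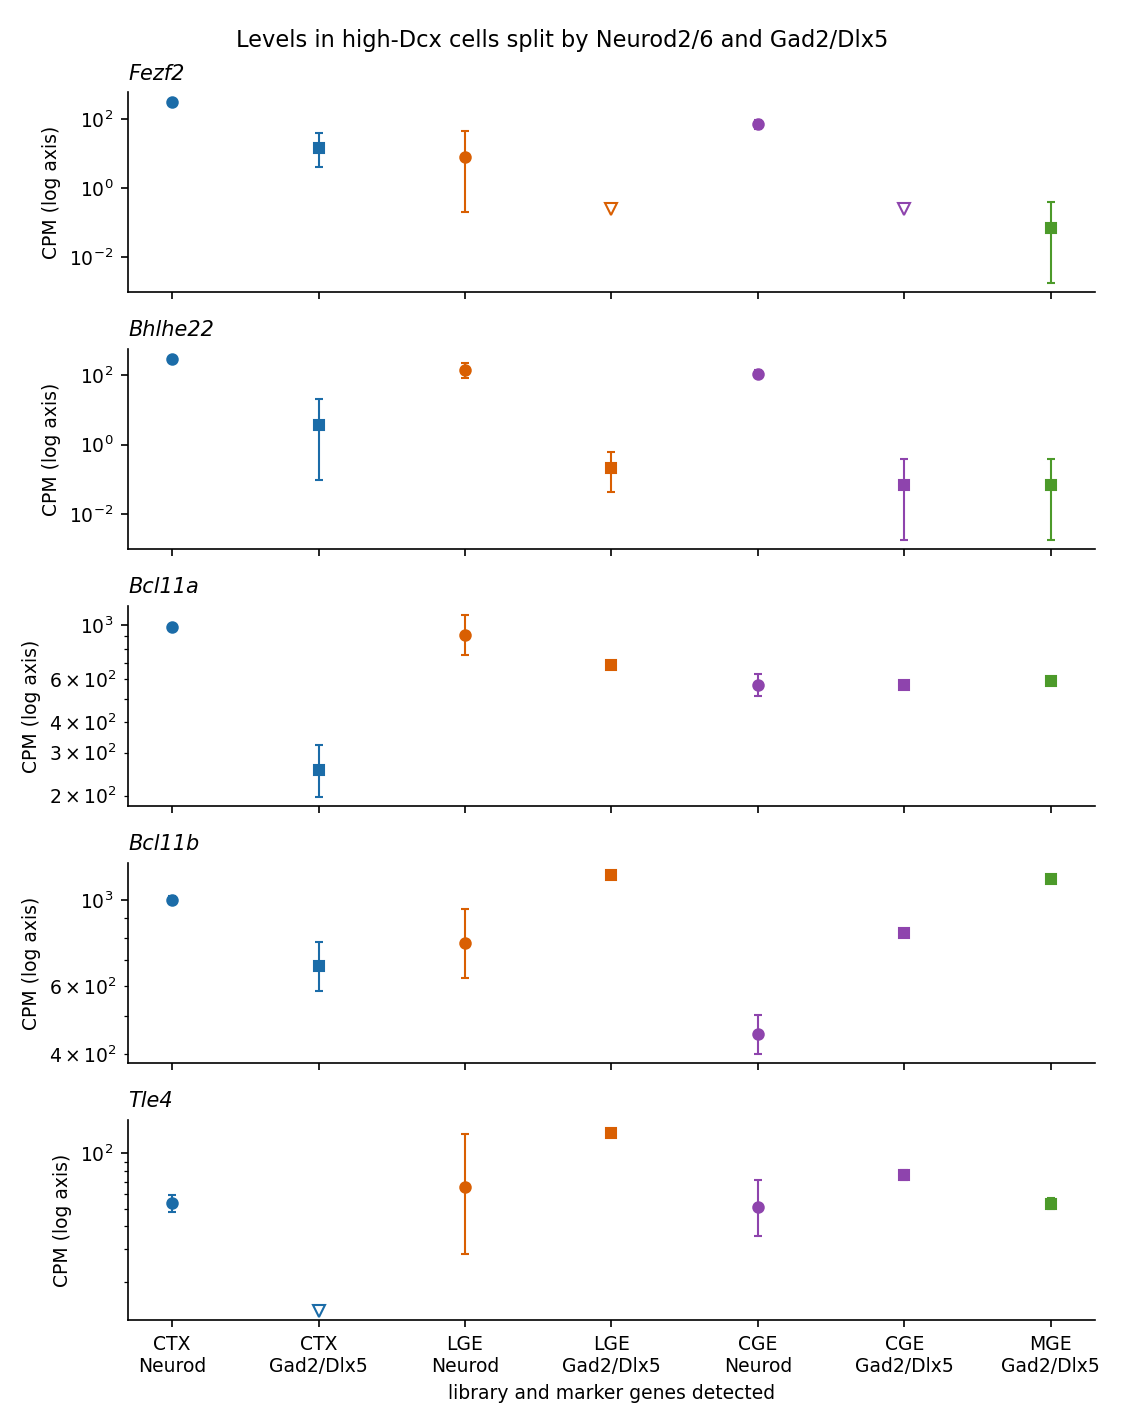
Level of each gene (CPM, log axes that differ between panels) in high-Dcx cells with Neurod2 or Neurod6 (circles) or with Gad2 or Dlx5 (squares), cells with both kinds left out, with exact Poisson 95% intervals and open triangles at the upper limit of 0 UMIs. Fezf2 is at 317 CPM in CTX Neurod cells and 71.5 CPM in CGE Neurod cells, and has 0 UMIs in Gad2 or Dlx5 cells of LGE and CGE.

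In the eminences, Ebf1 marks immature striatal projection neurons and Lhx6 marks cells born in the MGE, mainly interneurons. Some Ebf1 cells also held Neurod2 or Neurod6. Without those, 135 of 194 Ebf1 cells were left in CGE, 568 of 587 in LGE and 102 of 102 in MGE. The split below keeps them, so the CGE Ebf1 values are not those of striatal neurons alone. Bcl11b in cells with Ebf1 alone, with neither gene and with Lhx6 alone was 1875, 869 and 971 CPM in LGE, 1765, 943 and 1125 in MGE and 1419, 770 and 641 in CGE. The Ebf1 cells were highest in 3 of 3 libraries, at 1.84 to 2.16 times the cells with neither gene. Bcl11a in the same order was 886, 590 and 832 CPM in LGE, 1104, 497 and 574 in MGE and 973, 528 and 520 in CGE. In LGE the Ebf1 and Lhx6 cells did not differ in it beyond counting error (1.07, 0.989 to 1.15). Both genes were also abundant in Lhx6 cells, so the name projection neuron factors covers part of where they were found. Tle4 was 132, 139 and 26.7 CPM in LGE, 306, 86.0 and 34.2 in MGE and 94.99, 92.1 and 25.5 in CGE. The Lhx6 cells were lowest in Tle4 in all 3 libraries, at 0.192 to 0.398 of the cells with neither gene, while Ebf1 cells stood above those in MGE alone (3.56, 2.86 to 4.44).

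**Figure D4:**
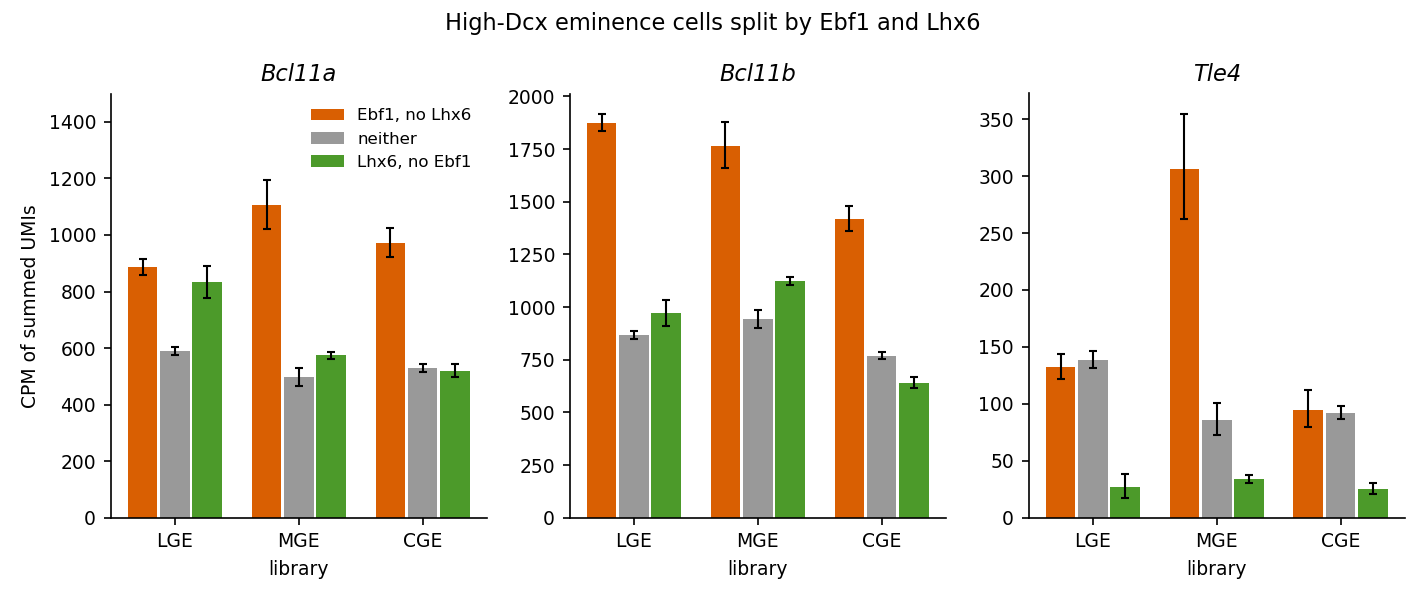
Level (CPM of summed UMIs, linear axis from 0) of Bcl11a, Bcl11b and Tle4 in high-Dcx cells of the 3 eminences with Ebf1 and no Lhx6, with neither gene, and with Lhx6 and no Ebf1, with exact Poisson 95% intervals. Bcl11b is highest in Ebf1 cells, 1419 to 1875 CPM, and Tle4 is lowest in Lhx6 cells, 25.5 to 34.2 CPM.

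The difference between high-Dcx cells with and without Ebf1 was tested over the 3 eminence libraries, where 3.63% of 12333 genes were higher and 3.26% lower in Ebf1 cells in edgeR's test. Bcl11b was 0.87 higher on the log2 scale (SE 0.11, adjusted p 0.00471) and Bcl11a 0.75 higher (SE 0.11, adjusted p 0.00791), both short of the 2-fold limit. Tle4 differed by 0.98 (SE 0.48, adjusted p 0.253) and Bhlhe22 by 1.86 (SE 0.49, adjusted p 0.0567), and Fezf2 was below the filter on low counts. So 0 of the 4 tested members met both criteria, in edgeR as in DESeq2, with 3 at an unadjusted p under 0.05 in edgeR. The Tle4 difference was 0.18 without MGE, the library with 102 Ebf1 cells. Among the lists, 7 of 13 tested striatal genes (median 1.31, against -0.01 over all genes) were higher in Ebf1 cells, Isl1 (3.92), Rarb (3.64), Sox8 (3.32) and Zfp503 (2.93, log2 scale) with the largest differences, and Sp9 (-2.59) was lower. Of the BCL11 and Groucho partners (median -0.26), 0 of 16 were higher and 2 were lower, Mta3 (-1.42), a remodelling complex subunit, and Tle2 (-1.36), a Groucho corepressor. Other lists moved with the classes as well. All 5 tested glutamatergic markers, Neurod6 (3.81) and Neurod2 (3.68) among them, were higher in Ebf1 cells and all 5 MGE interneuron markers were lower. Of 15 tested deep-layer and callosal genes (median -0.36), 4 were higher, Tbr1 (3.20), Zfpm2 (2.29), Pou3f1 (2.08) and Foxp2 (1.12), and Etv1 (-2.15) was lower. Foxp2 is in the striatal list as well and is counted in both lists in every comparison where it was tested. Of 7 radial glia markers 4 were lower, Sox2 (-2.58), Pax6 (-1.92), Vim (-1.22) and Nes (-1.12), as were 2 of 6 GABAergic markers, Dlx2 (-2.31) and Dlx1 (-2.17), and the part of the progenitor genes in the Bcl11a and Bcl11b differences was not tested. With Neurod2 or Neurod6 cells left out, Bcl11b differed by 0.99 (adjusted p 0.00179), and with Lhx6 cells left out by 0.97 (adjusted p 0.000488). Bhlhe22 fell below the filter once the Neurod cells or the Lhx6 cells were left out.

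Partner and lineage genes were counted in the test of high-Dcx against high-Nes cells in the same way. The median log2 difference over all genes was 0.01, against -0.18 for the partners, 0.46 for the deep-layer and callosal list and 1.49 for the striatal list. Of 16 tested partners of BCL11 and Groucho factors, Tle2 was higher in high-Dcx cells (3.85, adjusted p 0.00139) and Nr2f6, a nuclear receptor (-1.81), Rbbp7, a histone-binding subunit (-1.49), and Tle1 (-1.04) were lower, in edgeR's test. Prdm8 was higher by 4.86 (adjusted p 0.00160) and Bhlhe40, a relative of Bhlhe22, was lower (-5.02). Of 16 tested deep-layer and callosal genes, Tbr1 (4.81), Mef2c (3.55), Pou3f1 (2.77) and Cux2 (1.82) were higher and Lhx2 (-3.35), Rorb (-1.94) and Nr4a2 (-1.88) lower. Of 11 tested striatal genes 5 were higher, Tac1 (5.86), Ebf1 (4.38), Zfp503 (3.60) and Isl1 (3.15) with the largest differences, and 1, Sox8 (-3.50), was lower. Between regions, 9 of 9 striatal genes tested were over 2-fold lower in CTX than in LGE neurons (6.18% of all genes), 4 of 6 were lower and 2 higher against MGE (4.77% and 6.57%), and 4 of 7 were lower and 0 higher against CGE (5.37% and 5.25%). The deep-layer and callosal genes were split, with 5 higher and 4 lower of 10 against LGE, 5 and 3 of 9 against MGE and 4 and 1 of 9 against CGE.

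In single CTX neurons the share of cells with a pair of members lay near the product of their separate shares. Fezf2 and Bhlhe22 were both detected in 171 of 785 thinned CTX high-Dcx cells, 21.8%, where the product of their shares was 21.0%. The observed share over that product lay between 0.945 and 1.12 for all 10 pairs in CTX. For pairs with Bcl11a or Bcl11b, detected in 89.3% and 85.2% of cells, this value cannot rise far above 1. It therefore cannot show whether those pairs go together. In the 725 thinned CTX Neurod cells it was 1.06 for Bcl11b and Bhlhe22. Bhlhe22 was in 49.0% (45.0 to 53.0) of the cells with Bcl11b and 30.8% (22.3 to 40.5) of those without. For Fezf2 the same shares of Bhlhe22 were 45.3% and 47.4%. High-Dcx cells with both Bcl11a and Bcl11b made up 76.3% in CTX, where the eminences had 70.1% (LGE), 73.1% (MGE) and 57.3% (CGE), at 1.00 to 1.03 of the product. All 5 members were detected in 15 of 785 thinned CTX cells (1.91%) and in 138 of 800 at own depth (17.25%), and at own depth in 1 LGE, 0 MGE and 2 CGE cells. Thinning lowers such shares, so the true overlap cannot be read from them.

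The level of a member was also compared by whether another member was detected. In LGE, Bcl11b was 1.80 times higher in cells with Bcl11a (1.68 to 1.94), against 1.17 in CTX (1.01 to 1.35), 1.19 in MGE (1.12 to 1.26) and 1.21 in CGE (1.14 to 1.29). Tle4 was 2.65 times higher in the 1758 of 2074 thinned LGE cells with Bcl11b (154 against 58.0 CPM, 2.02 to 3.55), while in the 2007 of 2140 such MGE cells it was at 0.368 of the level without (46.2 against 125 CPM, 0.272 to 0.508). In CGE the ratio was 0.933 (0.756 to 1.16) and in CTX 1.68 (0.843 to 3.79), neither distinguished from 1. At own depth, where 78 LGE, 27 MGE and 178 CGE cells had no Bcl11b UMI, the Tle4 ratios were 3.60 (2.30 to 6.001), 0.304 (0.206 to 0.468) and 0.564 (0.472 to 0.678), so the CGE value depends on the depth. Cells of 1 library are not replicates, so these are descriptions of the 4 libraries.

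Among the 736 CTX Neurod cells, 21 list genes with enough UMIs were compared between cells with and without Fezf2, Bhlhe22 or Tle4. Ldb2, a LIM-domain cofactor found in corticofugal neurons, was at 14.4 CPM in the 577 cells with Fezf2 and 0.883 in the 159 without (ratio 16.3, 2.84 to 653). Crym, found in corticofugal neurons too, was at 23.1 and 1.77 CPM (13.1, 3.55 to 109), and the wide intervals reflect the few UMIs in cells without Fezf2. Mef2c followed at 3.37 (2.53 to 4.60), and Rorb (0.497), Foxp2 (0.562) and Pou3f1 (0.620) were lowest. Cells with Bhlhe22 differed the other way for Ldb2, 4.91 against 26.3 CPM (0.187, 0.108 to 0.314), with Nr4a2 (0.474) and Ikzf2 (0.584) next. Rorb (1.92), Lmo4 (1.91), a LIM-only factor of callosal neurons, and Id2 (1.69) were highest with Bhlhe22. Cells with Tle4 had more Ldb2 (3.01), Crym (2.33) and Mef2c (2.25), the same 3 genes that led for Fezf2. Ldb2 and Rorb thus ran opposite ways for Fezf2 and Bhlhe22, and the pair itself was detected together about as often as its shares give. The genes were named for their rank, and cells with a member were deeper (medians of 8636 against 6492 UMIs for Fezf2 in CTX high-Dcx cells), a difference whose part in these ratios was not tested.

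**Figure D5:**
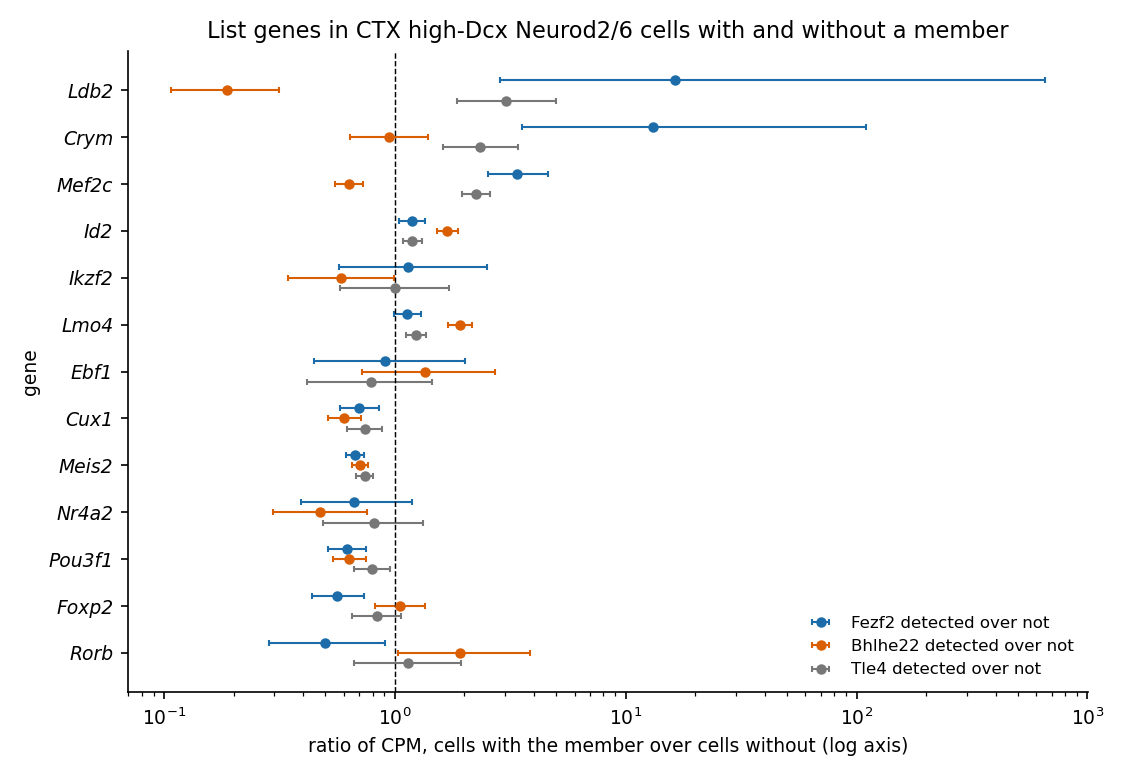
Ratio of CPM (log axis) of list genes in CTX high-Dcx Neurod cells in which a member was detected over those in which it was not, for Fezf2, Bhlhe22 or Tle4, with exact 95% intervals, for the 3 highest and 3 lowest genes of each of these members. Ldb2 lies at 16.3 for Fezf2 and 0.187 for Bhlhe22, and Rorb lies at 0.497 and 1.92.

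The list genes that went with Bcl11b and Tle4 differed between the eminences. In LGE high-Dcx cells, Tac1 (54.2, 9.71 to 2141), Ebf1 (16.5, 10.5 to 27.9) and Rarb (6.22, 1.71 to 51.6) had the highest ratios between cells with and without Bcl11b. The sizes for Tac1 and Rarb are poorly known, with 1.93 and 3.86 CPM in the cells without Bcl11b. In CGE, Zfp503 (13.4, 5.22 to 49.4) and Ebf1 (5.11, 3.55 to 7.65) were among the highest, while Tac1 was lowest (0.0369, 0.0281 to 0.0482). In MGE no list gene was more than 1.68 times higher with Bcl11b, and Foxp2 was lowest (0.0967). Cells without Bcl11b were few at own depth, 78, 178 and 27 in LGE, CGE and MGE. The ratios with Tle4 were led by Six3, a factor of indirect-pathway neurons, in LGE (3.50) and CGE (9.77), and by Zfp503 (6.53), Six3 (6.08) and Ebf1 (5.41) in MGE. In CGE, the 26 cells with Fezf2 had 27.1 times the Tbr1, 10.3 times the Id2 and 8.06 times the Lhx2 level of the rest, all genes of cortical neurons or progenitors.

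Over the 8 profiles given by 4 libraries and 2 classes, which share libraries and depth, 5142 genes were ranked by Pearson's r of log2(CPM + 1) with each member as a description. Fezf2 was most like Eomes (r = 0.969), Ly6e (0.969) and Arfip2 (0.963), and Bhlhe22 was most like Nhlh1 (0.997), Nxph4 (0.993) and Cotl1 (0.986). Bcl11a was most like Snf8 (0.995), Ptms (0.991) and Igfbpl1 (0.991), and Bcl11b most like Picalm (0.992), Ywhaz (0.992) and Rundc3a (0.988). Tle4 had the lowest leading values, Socs2 (0.947), Sgta (0.938) and Tmem55b (0.935). A high r does not mean a change of like size. Picalm spanned 42.5 to 59.8 CPM where Bcl11b spanned 47.7 to 1157, and Arfip2 spanned 50.2 to 71.5 CPM where Fezf2 spanned 0.0686 to 302.5. Among the members, the highest r was 0.883 for Fezf2 with Bhlhe22 and the lowest -0.31 for Fezf2 with Bcl11b.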

How the data were processed

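The authors deposited UMI counts per gene and cell barcode, as whole numbers on mm10 (GRCm38). The labels name Cell Ranger 3.0.0, and the headers of the matrices name version 3.0.2. The annotation release and the use of strand were not given in the sources used here, and neither was which of the kit versions each library had. The 4 libraries held 31451467 to 49794765 UMIs in 4301 to 6953 barcodes.

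Barcodes were kept with over 1500 and under 4500 genes, under 5% mitochondrial and under 1% Hbb UMIs, and predicted doublets were removed at 0.8% per 1000 barcodes (simulated pairs). The gate limit of 1.5 equals 348 CPM. Stage gates followed the study, with its limit of 0.5 for Mki67 and Ccnd2 used here for the other genes of the gates too. Counts per library and class were summed and tested with edgeR 4.0.16 in R 4.3.3 (quasi-likelihood test, TMM, filterByExpr, library block), with DESeq2 1.42.0 as an alternative, and cells past both gates were left out of the test of the classes. The script was tested on simulated data with known changes. SE values are the log2 difference divided by the square root of F. Levels were not tested between regions, since each is 1 library, and the interaction term was the one fit that set CTX against the eminences. Levels carry exact Poisson intervals, ratios exact conditional intervals and shares Clopper-Pearson intervals. Gene positions came from GENCODE M21 by gene ID without its version.

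The members and gene lists were chosen with earlier results of these data known. From the lists, genes past both thresholds with the largest differences were named, up to 4 per list and direction, beside the 3 highest and 3 lowest ratios in cells with and without a member and the 3 genes most like each member. Genes of a list named beyond that rule were chosen after their values were seen. A result that this rule would name is not reported here. Alternatives were other size factors, no filter on low counts, thinned cells, other gates, doublets kept, no upper gene limit, a library left out, other pseudocounts and limits, and lineage cells only. Lineage cells held Neurod2 or Neurod6 without Gad2 or Dlx5 in CTX, and Gad2 or Dlx5 without Neurod2 or Neurod6 in the eminences. The interaction term and the removal of non-neural, Neurod or Lhx6 cells were added after seeing the data.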

Additional observations from a re-analysis of the deposited data

Results flagged for a closer look

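The CTX library differed from the 3 eminence libraries in the Fezf2 difference between high-Dcx and high-Nes cells, by 3.34 on the log2 scale (interaction term in edgeR, chosen after the data were seen). CTX is 1 library and the fit has 2 residual degrees of freedom, so region and library cannot be told apart. The eminence side rests on 2, 1 and 60 UMIs in high-Dcx cells and 5, 5 and 22 UMIs in high-Nes cells of LGE, MGE and CGE. In CGE it mixes lineages, with 71.5 CPM in the Neurod2 or Neurod6 cells and 0 in the Gad2 or Dlx5 cells.

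The Tle4 level was 2.65 times higher in LGE high-Dcx cells with a UMI of Bcl11b than in those without, and in MGE it was 0.368 of the level without (cells thinned to 3000 UMIs, with Bcl11b in 1758 of 2074 LGE and 2007 of 2140 MGE cells). At own depth, with 78 and 27 cells without Bcl11b, the ratios were 3.60 and 0.304. The ratios lie on opposite sides of 1, and the difference between the libraries was not tested. In MGE the Lhx6 cells, which had 34.2 CPM of Tle4 against 306 CPM in the Ebf1 cells, made up 1779 of the 2193 high-Dcx cells. Their part in the MGE ratio was not tested.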

How the results depend on the processing

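No ratio between CTX and an eminence whose interval left out 1 changed direction under the alternatives, and Tle4 over MGE, 0.965 with an interval that holds 1, was 1.01 with lineage cells only. Values moved beyond the counting interval as follows. With each cell thinned to 3000 UMIs, CTX over LGE was 1.30 for Bcl11a, 0.755 for Bcl11b and 0.293 for Tle4, over MGE 0.798 for Bcl11b and 0.798 for Tle4, and over CGE 164 for Fezf2, 1.17 for Bcl11b, 111 for Bhlhe22 and 0.539 for Tle4. With the gate at 1.0, the ratio was 1.44 (Bcl11a over LGE), 0.820 (Bcl11b over LGE), 1.19 (Bcl11b over CGE) and 0.583 (Tle4 over CGE). With the gate at 2.0, it was 1.27 and 1.52 (Bcl11a over LGE and MGE), 0.808 and 0.835 (Bcl11b over LGE and MGE) and 0.341 (Tle4 over LGE). Without an upper gene limit, Bcl11b was at 0.908, 0.933 and 1.34 over LGE, MGE and CGE. With doublets kept, Fezf2 over LGE was 333. With lineage cells only, Bcl11a was 1.42 and 1.73 over LGE and CGE, and Bhlhe22 was 1451 and 4413. This setting sets CTX Neurod cells against eminence Gad2 or Dlx5 cells and leaves out the eminence Neurod cells, so it cannot check a difference between regions. The cause of these shifts was not tested.

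With genes at 10 or more CPM, 1247, 1137 and 1125 genes were past 2-fold between CTX and LGE, MGE and CGE, against 496, 459 and 435, since more genes are tested. Calls for Ebf1 cells numbered 850, 1319 without a filter, 553 thinned, 482 at gate 2.0 and 408 (without LGE) to 975 (without CGE) with a library left out. Calls for high-Dcx against high-Nes cells numbered 3546 and stayed within 1.5 times. Fezf2 reversed to 0.13 (adjusted p 0.889) in MZ against VZ cells, and it and Bhlhe22 fell below the filter without CTX, thinned or at gate 2.0. Bhlhe22 was called in Ebf1 cells without a filter (adjusted p 0.0142), against 0.0567. Low counts limit the precision for Fezf2 and Bhlhe22 in LGE and MGE, where 1 to 24 UMIs were counted in high-Dcx cells. These cells held 14792210 and 14569772 UMIs of all genes, more than the 6763019 of CTX. No pairing between the regional libraries was possible, because the labels give no replicate numbers that join them. The tests of cell classes paired the classes within each library, with library as a block throughout.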
